A study of Homo sapiens with 3 samples.

Results

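The comparison described here is that of OVCAR3 cells treated with the RAC1 inhibitor (RAC1i) against cells treated with DMSO, gene by gene. OVCAR3 is a long-used line derived from a human high-grade serous ovarian cancer (HGSOC), RAC1i is NSC23766 given at 50 μM, and DMSO is the solvent control. Both cultures were taken after 48 hours, and each was measured as 1 library of single cells. Another library of the same line and time, Combo, received 50 μM RAC1i together with 5 μM GSK126, an inhibitor of the histone methyltransferase EZH2, and its values are given side by side only. The DMSO library served as the control of both treated libraries. Cells with over 1000 genes, at most 20% mitochondrial unique molecular identifiers (UMIs) and a complexity score over 0.8 were kept, which left 7531 DMSO and 10215 RAC1i cells. UMIs, each of which marks a captured mRNA molecule, were summed per gene over the kept cells and given as CPM, the count of a gene scaled to the same total in every library. Of 36601 genes, the 8778 with at least 10 CPM in either library were compared, and these held 97.9% of the DMSO UMIs and 98.2% of the RAC1i UMIs.

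RAC1 is a small GTPase that switches between a GDP-bound and a GTP-bound form. Exchange factors such as TIAM1 load it with GTP, GTPase-activating proteins switch it off, and the active form binds effectors such as the PAK kinases and the WAVE complex that drive actin polymerization at the cell edge. NSC23766 was designed to block the contact between RAC1 and exchange factors such as TIAM1 and TRIO, so its target is a protein interaction and not the RAC1 transcript.

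With 1 library per treatment there were no replicates, and no test of the treatment was possible. Ranges in parentheses after a ratio are exact 95% intervals that cover counting error only, since UMIs of the same cell and cells of the same culture are not independent. A gene was called higher or lower when its CPM differed at least 2-fold, a fold with no p-value attached. The median number of UMIs per cell was 26750 in DMSO and 20989 in RAC1i, and mitochondrial transcripts made up 6.15% and 1.81% of all UMIs. These libraries shared 23 of their kept cell barcodes. OVCAR3 markers were present in both libraries. Of the markers of cells that a pure line should lack, all 10 immune genes together were at 1.96 CPM in DMSO and 11.4 CPM in RAC1i, 10 fibroblast and mesothelial genes at 11.1 and 8.98 CPM, and 5 erythroid genes at 0.0553 and 1.43 CPM. None of those 25 genes reached 10 CPM, and of 6 endothelial genes only EGFL7 did.

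The RAC1i library differed from the DMSO library in a large part of the transcriptome. Of the 8778 genes, 1151 were at least 2-fold higher in RAC1i, which is 13.1% of the genes compared, and 2159 (24.6%) were at least 2-fold lower. At a 4-fold limit, 310 genes (3.53%) were higher and 570 (6.49%) were lower. The remaining 5468 genes (62.3%) lay within 2-fold. Of the higher genes, 432 were under 10 CPM in DMSO and were compared only through their level in RAC1i. Of the lower genes, 1179 were compared only through DMSO. Of the 8145 genes with at least 10 CPM in DMSO, 719 were higher and 2159 lower. The genes called higher went from 5.36% of all UMIs in DMSO to 17.6% in RAC1i, and the genes called lower went from 19.0% to 6.15%. The median log2 ratio over all genes was −0.20, with a 5th percentile of −2.19 and a 95th of 1.69, so a gene that moved with the bulk of the transcriptome sat slightly below 0 on this scale.

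**Figure D1:**
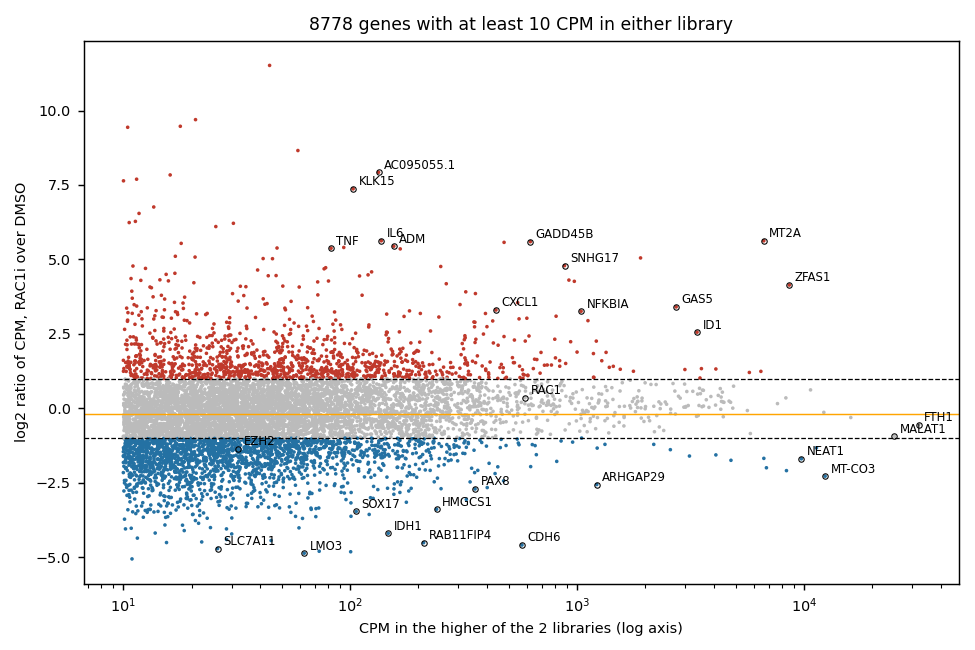
Each point is 1 of 8778 genes, with the CPM of the higher of the DMSO and RAC1i libraries on the x axis (log axis) and the log2 ratio of CPM, RAC1i over DMSO, on the y axis. Red and blue points are at least 2-fold higher (1151) or lower (2159), dashed lines mark 2-fold, the orange line marks the median of −0.20, and circled points with names are genes described in the text.

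The scaling of the libraries bears on the balance of both directions. After scaling by DESeq2 size factors in place of the total, 1433 genes were higher and 1758 lower, so 44.9% of the called genes were higher in place of 34.8%. With TMM factors the share was 40.2%. The median over all genes moved by 0.18 with DESeq2 size factors and by 0.09 with TMM.

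The 15 largest rises among genes with at least 50 CPM were those of the long noncoding RNAs AC100800.1, AC095055.1 and SNHG17, the metallothioneins MT2A and MT1X, the cytokines IL6 and TNF, the vasodilator peptide ADM, the peptidase KLK15, the stress gene GADD45B, the YAP target ANKRD1, and the transcription factors KLF10, NR1D1, GATA2 and ZNF34. KLK15, a kallikrein-related serine peptidase on chromosome 19 (50825289 to 50837213 of GRCh38, reverse strand), was at 0.623 CPM in DMSO and 103 CPM in RAC1i, a ratio of 165 (139–199). The single-exon AC095055.1 on chromosome 4 (151139991 to 151141103, forward strand) went from 0.548 to 133 CPM. GATA2, a zinc finger factor of blood and urogenital development, went from 9.23 to 251 CPM, a ratio of 27.1 (25.9–28.5). GADD45B, which binds stress kinases, went from 12.9 to 622 CPM, a ratio of 48.3 (46.5–50.3). All 15 except MT2A and MT1X were under 50 CPM in DMSO. All except these, SNHG17, GADD45B and KLF10 were under 10 CPM in DMSO and passed the filter only through RAC1i, so their direction was fixed. Each of the 15 was higher in RAC1i within all 4 ranges of UMIs per cell, which split the same cells that ranked them. In Combo, KLK15 was at 86.3 CPM, GATA2 at 194 CPM and GADD45B at 575 CPM. One gene among the 8778 compared had no UMI in DMSO, the natriuretic peptide gene NPPB, and was at least 694-fold higher in RAC1i against a floor of 3 UMIs. It was named because it was the only such gene, after its values were seen.

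The 15 largest falls among genes with at least 50 CPM were those of LMO3, TMEM100, TSHR, CDH6, RAB11FIP4, IDH1, TP53INP1, IL18, GSDMD, DIPK1B, TRHDE-AS1, TENM3, NMRAL1, SOX17 and CLGN. TRHDE-AS1 is annotated antisense to another gene, and its UMIs are uncertain where the counting could not tell the strands apart. CDH6, a cadherin of kidney and Müllerian epithelium that is located on chromosome 5 (31193686 to 31329146, forward strand), was the most abundant of them at 572 CPM in DMSO. CDH6 stood at 23.7 CPM in RAC1i, which is 24.1-fold lower (23.5–24.8). LMO3, a LIM-only transcriptional cofactor, went from 62.7 to 2.15 CPM, 29.2-fold lower (26.7–32.0). TSHR, the receptor for thyrotropin, went from 73.0 to 2.62 CPM. IDH1, the cytosolic NADP-dependent isocitrate dehydrogenase, went from 147 to 8.02 CPM, 18.3-fold lower (17.5–19.2). IL18, a cytokine of the IL1 family, and GSDMD, the pore protein of pyroptosis, were 13.0-fold and 12.5-fold lower. All except CDH6 and TENM3 were under 10 CPM in RAC1i and passed the filter only through DMSO, so their direction was fixed. All 15 were lower in RAC1i within each of the 4 ranges of UMIs per cell, which split the same cells that ranked them. The same genes in Combo stood at 17.8 CPM for CDH6, 1.70 CPM for LMO3, 2.14 CPM for TSHR and 9.19 CPM for IDH1.

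In CPM, the 10 largest gains were spread over 2 noncoding host genes, a metallothionein, ID1 and 6 ribosomal protein genes. ZFAS1, a host gene of small nucleolar RNAs, gained the most and went from 489 to 8620 CPM. MT2A went from 135 to 6652 CPM and ID1 from 575 to 3379 CPM. RPS16, RPS9, RPL24, RPL23A, RPS26 and RPS13, all parts of the cytosolic ribosome, and the host gene GAS5 completed the 10 largest gains. The 10 largest losses were those of the nuclear noncoding RNAs MALAT1 and NEAT1, the ferritin heavy chain FTH1, RPS2 and 6 mitochondrially encoded mRNAs. MALAT1 went from 25028 to 13061 CPM and FTH1 from 32077 to 21963 CPM, both within 2-fold. NEAT1 went from 9741 to 3004 CPM and was 3.24-fold lower. Among cells with 1000 to 10000 UMIs, MALAT1 and NEAT1 were higher in RAC1i, with log2 ratios of 0.83 and 0.22, and the direction of MALAT1 held in 2 of 4 ranges of mitochondrial share.

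Inflammatory ligands were higher or lower by member, and none of those compared was within 2-fold. Of 26 genes of chemokines and cytokines, 10 reached 10 CPM, with a median log2 ratio of 2.09. Of these 10, 7 (70%) were at least 2-fold higher and 3 (30%) lower, against 13.1% and 24.6% of all genes. Of the 7 higher genes, 5 (IL6, TNF, CXCL8, CXCL3 and CXCL2) were under 10 CPM in DMSO and were compared only because of their level in RAC1i, and 2 of the 3 lower genes passed only through DMSO, so the filter fixed the direction of these 7 of 10 genes. IL6, an acute-phase cytokine, stood at 2.78 CPM in DMSO against 137 CPM in RAC1i, with 76.8 CPM in Combo. Its ratio of RAC1i to DMSO was 49.3 (45.4–53.8). TNF, which activates NF-kB in neighbouring cells, was at 1.98, 82.4 and 51.6 CPM in the same order. The neutrophil chemokine CXCL8 was at 3.40, 35.1 and 14.2 CPM. CXCL1 was 9.85-fold higher in RAC1i (9.64–10.1), CXCL3 5.78-fold (5.38–6.22) and CXCL2 3.13-fold (2.94–3.33), and these 3 chemokines are near-identical paralogs whose reads the counting could share. The members that were lower, IL18, the TNF family ligand CD70 and the death ligand TNFSF10, went from 61.6 to 4.75, from 51.3 to 14.1 and from 10.9 to 3.47 CPM. Both directions thus occurred within the ligands, with the lower members also at lower CPM in Combo than in DMSO.

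Members of the NF-kB system were higher or within 2-fold. Of 19 subunits, inhibitors and targets compared, 11 (57.9%) were at least 2-fold higher and 0 lower, with a median of 1.02. Over all genes, 13.1% were higher and 24.6% lower. Of those 11, 6 were under 10 CPM in DMSO and were compared only because of their level in RAC1i. Of the 13 with at least 10 CPM in DMSO, 5 were higher, against 719 of 8145 among all genes. The subunit RELA was within 2-fold at 31.6 CPM in DMSO and 45.4 CPM in RAC1i, REL was within 2-fold, and NFKB1 was higher at 21.1 and 55.8 CPM. Among the inhibitors of the pathway, TNIP2, which binds A20, had the lowest log2 ratio of the list at −0.92, within 2-fold. NFKBIA, which holds NF-kB in the cytoplasm, went from 109 to 1042 CPM, a ratio of 9.57 (9.44–9.71). TNFAIP3, a ubiquitin-editing inhibitor also known as A20, went from 3.79 to 71.9 CPM, a ratio of 19.0 (17.6–20.4). The adhesion molecule ICAM1 and the survival gene IER3, both targets, went from 2.48 to 19.1 and from 55.6 to 425 CPM. In Combo, NFKBIA was at 981 CPM and TNFAIP3 at 50.0 CPM. The median of this list was below 2-fold under 3 of the 14 other ways of processing, so the list as a whole sat at the edge of the limit.

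Promoters of 6 of these genes are shown with a match to the letters that NF-kB is known to read, which most genes of the NF-kB list did not hold. They are 5 genes that were higher and REL, which was within 2-fold. The kappa-B pattern of NF-kB, whose matches stand in capitals in the sequences given here, was searched on both strands in the 300 bases around each gene start (250 before and 50 after) of RefSeq, which held a promoter for 7211 of the 8778 genes. A match was present in 1.08% of these promoters and in 0.997% of all 27195 promoters of chromosomes 1 to 22 and X. It was present in 4 of 7 chemokine and cytokine promoters, in 5 of 16 promoters of the NF-kB list, in 12 of the 243 promoters of genes at least 4-fold higher (4.94%) and in 4 of the 456 promoters of genes at least 4-fold lower (0.877%). Besides members of the lists, the promoters of PTX3, a soluble pattern receptor with a log2 ratio of 3.03, of BCL3, a nuclear partner of NF-kB with 2.03, and of SLC9A5, BNIP1, LIPT1 and SEC24A, with 4.70, 2.29, 2.22 and 2.07, were among the 12. The 4 lower genes with a match were GCA, PLLP, SGPP2 and FADS3, with log2 ratios of −2.75, −2.30, −2.21 and −2.04. The 100 bases before the gene start are given 5′ to 3′ on the strand of the gene, GRCh38.p14, with the match in capitals, for the 3 neighbouring CXCL genes, for IL6, for NFKBIA and for REL.
CXCL1 (chr4:73869293-73869392, forward strand): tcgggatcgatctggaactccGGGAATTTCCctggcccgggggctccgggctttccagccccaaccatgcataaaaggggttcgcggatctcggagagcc
CXCL2 (chr4:74099196-74099295, reverse strand): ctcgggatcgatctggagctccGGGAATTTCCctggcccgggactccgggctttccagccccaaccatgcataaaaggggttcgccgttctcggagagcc
CXCL3 (chr4:74038690-74038789, reverse strand): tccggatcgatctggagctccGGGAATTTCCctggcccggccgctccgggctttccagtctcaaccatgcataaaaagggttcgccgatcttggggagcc
IL6 (chr7:22727100-22727199, forward strand): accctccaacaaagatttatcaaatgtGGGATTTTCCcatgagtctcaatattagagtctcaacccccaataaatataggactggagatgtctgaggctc
NFKBIA (chr14:35404750-35404849, reverse strand): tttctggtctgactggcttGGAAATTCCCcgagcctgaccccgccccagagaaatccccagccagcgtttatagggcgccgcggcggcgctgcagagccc
REL (chr2:60881474-60881573, forward strand): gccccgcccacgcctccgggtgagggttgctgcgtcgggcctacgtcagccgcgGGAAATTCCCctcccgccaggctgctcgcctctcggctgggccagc
The match began 79 bases before the gene start in CXCL1 and CXCL3, 78 bases before it in CXCL2, 73 in IL6, 81 in NFKBIA and 46 in REL. The promoters of NFKB1 and TNFAIP3 also held a match in these 100 bases. The 3 CXCL promoters are paralogous sequences, so their shared match is not independent. TNF and CXCL8 had no match to these letters in this window. The 100 bases before CXCL8 did hold TGGAATTTCC, which departs from the letters searched only in its first base. A site that departs from these letters was not counted.

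Immediate early genes, which encode short-lived transcription factors of the first response to a signal, split by member. Of 20 compared, 11 (55%) were at least 2-fold higher and 2 (10%) lower, against 13.1% and 24.6% of all genes. The median was 1.23. KLF10, a factor induced by TGF-beta, went from 10.0 to 477 CPM under RAC1i and stood at 471 CPM in Combo. The stress factor ATF3 went from 5.37 to 120 CPM and the AP-1 subunit JUNB from 69.2 to 555 CPM. Of the 11 higher genes, 5 were under 10 CPM in DMSO, and of the 15 with at least 10 CPM there 6 were higher. EGR1 went from 63.5 to 19.6 CPM and FOSB from 55.7 to 18.0 CPM, and FOS was 1.48-fold lower, within the limit. These 3 genes were higher in RAC1i among cells with 1000 to 10000 UMIs, where FOS had a log2 ratio of 3.04, and lower in the other 3 ranges.

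Feedback inhibitors of ERK signalling were low in DMSO, and most of those compared were higher in RAC1i. The list holds dual-specificity phosphatases (DUSP), Sprouty genes (SPRY) and SPRED genes, many of which are transcribed when ERK is active and then restrain it. PHLDA1 is also a member and belongs to none of these families. Of 15 compared, 12 (80%) were at least 2-fold higher and 0 lower, against 13.1% and 24.6% of all genes, with a median of 2.10. The other 3 (SPRED2, SPRY1 and DUSP8) had log2 ratios of 0.62, 0.72 and 0.76. Of the 12, 11 were under 10 CPM in DMSO and entered only through RAC1i, so their direction was fixed by the filter, and of the 4 genes with at least 10 CPM in DMSO 1 was higher. PHLDA1 went from 0.412 to 30.6 CPM, DUSP4 from 1.27 to 41.3 CPM, and SPRY4 from 0.527 to 10.8 CPM. DUSP6, the phosphatase most used as a readout of ERK, went from 3.71 to 11.9 CPM, a ratio of 3.20 (2.95–3.47). The levels were low in both libraries, and the largest RAC1i value of the list was 71.4 CPM, for DUSP1. In Combo, PHLDA1 was at 24.8 CPM and DUSP4 at 27.0 CPM.

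**Figure D2:**
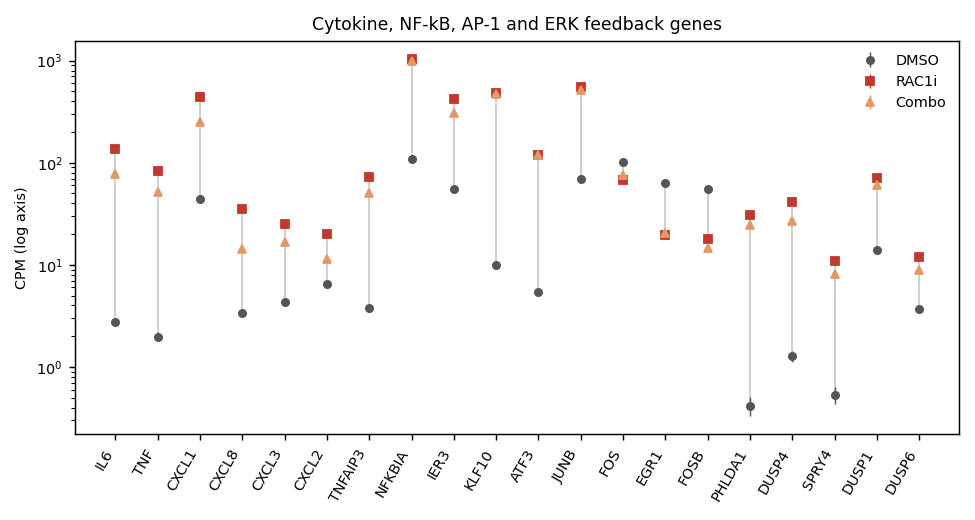
Points give the CPM (log axis) of 20 cytokine, NF-kB, AP-1 and ERK feedback genes in the DMSO, RAC1i and Combo libraries, with exact 95% counting intervals and a grey line from DMSO to RAC1i. RAC1i lies above DMSO for 17 genes and below it for FOS, EGR1 and FOSB.

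Feedback genes of BMP, TGF-beta and Notch signalling were mostly higher, and all 10 compared had at least 10 CPM in both libraries. The ID genes encode inhibitors of basic helix-loop-helix factors and respond to BMP signals. ID1 went from 575 to 3379 CPM, ID2 from 73.8 to 601 CPM, ID3 from 47.8 to 355 CPM and ID4 from 40.8 to 120 CPM. The Notch target HES1 went from 29.4 to 246 CPM and the SMAD inhibitor SMAD7 from 31.3 to 147 CPM, while HES4 went the other way, from 126 to 15.5 CPM. In all, 7 of the 10 members compared (70%) were at least 2-fold higher and 1 (10%) lower, against 13.1% and 24.6% of all genes.

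Of 11 genes of the circadian clock compared, 7 (63.6%) were at least 2-fold higher and 0 lower, against 13.1% and 24.6% of all genes. All 7 were under 10 CPM in DMSO and were compared only because of their level in RAC1i, so the filter fixed their direction, and of the 4 with at least 10 CPM in DMSO 0 were higher. NR1D1, which encodes the repressor REV-ERB alpha, went from 2.22 to 93.7 CPM, a ratio of 42.3 (38.5–46.6). CIART, a repressor of the clock, and PER1, a core repressor that also responds to acute signals, went from 4.55 to 54.9 and from 1.80 to 18.4 CPM. The activator CLOCK was at 36.3 and 40.2 CPM. PER3 was also within 2-fold, and each library was taken at a single time.

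Among HOX genes, which encode factors of body patterning, those called higher were mostly low in DMSO. Of 39 HOX genes, 15 reached 10 CPM. Of these, 8 (53.3%) were at least 2-fold higher and 0 lower, against 13.1% and 24.6% of all genes. The median of 1.07 turned to −0.32 when only genes with at least 50 CPM were compared. Only 4 of the 15 had a ratio below 1, so the value at 50 CPM rested on few genes. Of the 8 higher genes, 6 were under 10 CPM in DMSO and passed only through RAC1i. The 3 largest belonged to the HOXC cluster, where HOXC13 went from 2.98 to 76.7 CPM, HOXC9 from 2.15 to 47.1 CPM and HOXC8 from 1.91 to 32.8 CPM. The HOXA genes that were abundant in DMSO, HOXA3 and HOXA5, stood at 70.7 and 92.0 CPM in DMSO against 44.5 and 73.9 CPM in RAC1i. Among 172 ZNF genes compared, 79 were at least 2-fold higher and 22 lower, which is 45.9% higher against 13.1% of all genes. Of the 79, 53 passed only through RAC1i. Of the 112 with at least 10 CPM in DMSO, 26 were higher and 22 lower, against 719 and 2159 of 8145 among all genes. ZNF34 went from 2.95 to 78.0 CPM and ZNF571 from 2.93 to 50.5 CPM, and ZNF32 from 15.4 to 1.21 CPM.

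Metallothioneins and zinc transport genes had the highest median of any list, 3.85 over 7 genes. These small cysteine-rich proteins bind zinc and copper and are induced by free metal through the factor MTF1. MT2A and MT1X were 49.4-fold (48.8–50.0) and 33.1-fold (32.5–33.8) higher. The zinc exporter SLC30A1 went from 16.2 to 145 CPM and MTF1 from 20.8 to 47.1 CPM. Their summed level went from 281 CPM to 9189 CPM under RAC1i and was 13150 CPM in Combo. Metallothionein transcripts are near-identical in sequence, so the division of UMIs among them is uncertain.

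Genes of lipid synthesis were lower across the pathway. The mevalonate pathway turns acetyl-CoA into cholesterol, and its genes, like those of fatty acid synthesis, are controlled by the SREBP factors. Of 25 genes of cholesterol synthesis and uptake, 21 (84%) were at least 2-fold lower and 0 higher, against 24.6% and 13.1% of all genes. The median was −1.92, and 8 of the 21 passed the filter only through DMSO. HMGCS1, which makes HMG-CoA, went from 240 to 22.9 CPM and was 10.5-fold lower (10.2–10.8). SQLE, the squalene epoxidase, went from 166 to 23.3 CPM, and INSIG1, which retains SREBP in the endoplasmic reticulum, from 26.4 to 2.76 CPM. In Combo the summed level of the list was 771 CPM, against 654 CPM in RAC1i and 2370 CPM in DMSO.

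Of 14 genes of fatty acid synthesis, 10 (71.4%) were at least 2-fold lower and 0 higher, against 24.6% and 13.1% of all genes. Of these 10, 4 passed the filter only through DMSO. SCD, the desaturase that makes oleate, went from 402 to 63.5 CPM, 6.33-fold lower (6.22–6.44). FASN went from 228 to 70.3 CPM and SREBF1, which encodes SREBP1, from 36.6 to 6.27 CPM. The CCAAT letters that bind NF-Y, a partner of SREBP, were present on either strand in 15 of 19 cholesterol promoters and in 6 of 13 fatty acid promoters, against 37.9% of the promoters of all genes compared. Of 11 clock promoters, 9 held them. The sterol response pattern TCACNCCAC was found in 1 of the 19 cholesterol promoters.

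NRF2 targets, which supply glutathione and NADPH, were lower in 8 of 14 cases (57.1%, against 24.6% of all genes) and higher in 0. GCLM, a subunit of glutathione synthesis, went from 25.4 to 6.60 CPM and TKT, the transketolase, from 320 to 112 CPM. GCLM passed the filter only through DMSO, so its direction was fixed. The median of this list, −1.01, was within 2-fold under 4 of the 14 other ways of processing.

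Genes of the integrated stress response went both ways, with 4 of 21 higher (19.0%), 10 lower (47.6%) and 7 within 2-fold. Over all genes the shares were 13.1% and 24.6%. Of the 10 lower genes, 4 passed the filter only through DMSO, SLC7A11 among them, so their direction was fixed. The median of −0.93 was 0.19 among cells with 1000 to 10000 UMIs. ATF4, the central factor, went from 160 to 797 CPM, a ratio of 4.99 (4.93–5.05). DDIT3, which encodes CHOP, went from 47.0 to 351 CPM and PPP1R15A, which restores translation, from 18.9 to 183 CPM. DDIT3 and PPP1R15A are themselves known targets of ATF4. Other known ATF4 targets were lower. The cystine transporter SLC7A11 went from 26.0 to 0.992 CPM, 26.2-fold lower, and the serine synthesis genes PHGDH and PSAT1 went from 325 to 38.9 CPM and from 123 to 15.3 CPM. CHAC1, MTHFD2 and SHMT2 were also at least 2-fold lower. SLC7A11, PHGDH and PSAT1 kept this direction in each of the 4 ranges of UMIs per cell, and so did ATF4, DDIT3 and PPP1R15A. These ranges split the same cells, so this agreement is not independent support.

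Chaperones of the endoplasmic reticulum were lower in 8 of 17 cases (47.1%, against 24.6% of all genes), and their median of −0.79 was −0.09 among cells with 1000 to 10000 UMIs. Among them were SDF2L1, from 127 to 20.6 CPM, PDIA4 from 122 to 29.1 CPM and CALR from 555 to 238 CPM. The abundant HSPA5, or BiP, stood at 357 and 206 CPM, within 2-fold. DNAJB9, a co-chaperone of BiP, was the only member higher, at 17.5 and 64.7 CPM. Of 20 aminoacyl-tRNA synthetases, which charge tRNAs, 4 were lower (AARS, QARS, EPRS and CARS), a share below the 24.6% of all genes, and 0 higher. Of these 4, 2 passed the filter only through DMSO. AARS, QARS and EPRS were 6.75-fold, 5.99-fold and 5.54-fold lower, and the other 16 genes lay within 2-fold.

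**Figure D3:**
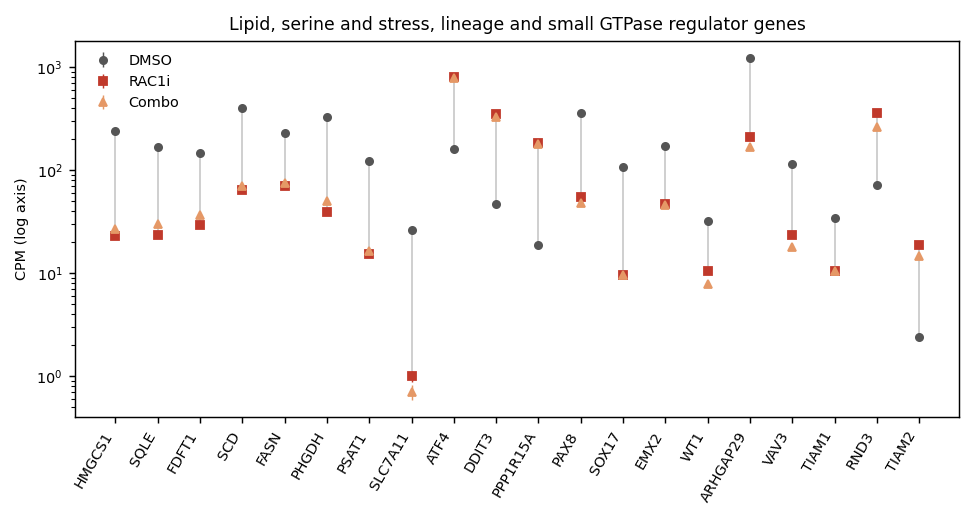
Points give the CPM (log axis) of 20 genes of lipid synthesis, serine synthesis and stress, lineage and small GTPase regulation in the DMSO, RAC1i and Combo libraries, with exact 95% counting intervals and a grey line from DMSO to RAC1i. RAC1i lies above DMSO for ATF4, DDIT3, PPP1R15A, RND3 and TIAM2 and below it for the other 15.

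Summed over all kept cells, transcripts of the mitochondrial genome were all lower while most nuclear genes of the same complexes were within 2-fold. All 13 mitochondrial mRNAs were at least 2-fold lower, with a median of −1.68, and MT-CO3, a subunit of cytochrome oxidase, went from 12396 to 2553 CPM. This difference moved with the mitochondrial share and the depth of the cells. Among cells with 1000 to 10000 UMIs the median of these 13 genes was 0.83, and in the other 3 ranges it was −1.72 or lower. By mitochondrial share (under 2, 2 to 4, 4 to 8 and 8 to 20%) the median was 0.35, −0.18, −0.08 and 0.40. In cells with 2 to 6% mitochondrial UMIs in both libraries it was −0.53, and with every cell given equal weight it was −0.95. The window of 2 to 6% and the ranges of share select cells by the same transcripts, so part of this narrowing is fixed by the selection. Of 37 nuclear genes of complex I, 6 (16.2%) were lower and 0 higher, with a median of −0.10. Of 38 nuclear genes of complexes II to V, 4 (10.5%) were lower and 0 higher. Over all genes, 24.6% were lower and 13.1% higher. Among cells with 1000 to 10000 UMIs the median was −0.67 for complex I and −0.75 for complexes II to V. Genes that transcribe and maintain the mitochondrial genome had a median of 0.56, with 6 of 25 higher and 3 lower, against 13.1% and 24.6% of all genes, and a median of 0.0047 among cells with 1000 to 10000 UMIs. The lower members were FASTK, ELAC2 and FASTKD2, with log2 ratios of −2.37, −1.05 and −1.04. TFB2M, a mitochondrial transcription factor, went from 26.2 to 84.5 CPM, TFAM, which packages the mitochondrial genome, from 119 to 273 CPM, and TWNK, its helicase, from 37.0 to 103 CPM. The mitochondrial RNA polymerase POLRMT stood at 21.7 and 11.4 CPM.

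Genes that define the Müllerian and serous lineage were lower in RAC1i. Of 14 such genes compared, 10 (71.4%) were at least 2-fold lower and 1 (7.14%) higher, against 24.6% and 13.1% of all genes, with a median of −1.49. The median was −0.54 among cells with 1000 to 10000 UMIs and between −1.59 and −1.48 in the other 3 ranges. PAX8, the lineage factor of the fallopian secretory cell, went from 355 to 54.3 CPM, 6.54-fold lower (6.42–6.67). SOX17, its partner, went from 106 to 9.63 CPM, and EMX2, a factor of the reproductive tract, from 173 to 46.4 CPM. WT1 and MUC16, which encodes the tumor marker CA125, went from 32.0 to 10.4 CPM and from 137 to 43.3 CPM. OVGP1, the secreted oviductal glycoprotein, went from 0.141 to 10.6 CPM and passed the filter only through RAC1i, so its direction was fixed, and of the 13 genes with at least 10 CPM in DMSO 0 were higher. The abundant secreted proteins WFDC2 and SLPI were within 2-fold. Among 12 markers of OVCAR3 cells, 7 were lower, EPCAM, KRT8, KRT18, CLDN4 and WFDC2 were within 2-fold, and 0 were higher. EPCAM was at 320 CPM in DMSO and 274 CPM in RAC1i, so the epithelial label of the cells was met in both libraries.

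Cadherins, claudins and junction genes were lower in 11 of 24 cases (45.8%, against 24.6% of all genes) and higher in 1. Their median was −0.71 over all cells but 0.14 among cells with 1000 to 10000 UMIs. After CDH6, the claudin CLDN3 went from 325 to 131 CPM and CDH1, or E-cadherin, from 47.1 to 22.9 CPM. KRT7 went from 1226 to 486 CPM. Among stemness genes and aldehyde dehydrogenases, 7 of 11 (63.6%, against 24.6% of all genes) were lower, of which 4 passed the filter only through DMSO. ALDH1A1, ALDH2 and ALDH6A1 were 8.48-fold, 5.35-fold and 4.98-fold lower, SOX2 went from 76.8 to 18.3 CPM, and the Polycomb gene BMI1 was the only one higher, from 23.0 to 61.5 CPM. CD44, PROM1, ALDH1A2 and ALDH1A3 stayed under 10 CPM in both libraries and were not compared.

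The transcript of RAC1, the protein that the inhibitor targets, differed little. RAC1 stood at 462 CPM in DMSO against 590 CPM in RAC1i, with 577 CPM in Combo, a ratio of 1.28 (1.27–1.29) for RAC1i. It was lower in RAC1i among cells with 1000 to 10000 UMIs, at a log2 ratio of −0.65, and its direction held in 2 of 4 ranges of mitochondrial share. Of 33 genes of the pathway compared, 7 (21.2%) were at least 2-fold lower and 3 (9.09%) higher, near the 24.6% and 13.1% of all genes. The median was −0.09, and CDC42, RHOA, RHOC, PAK1, PAK2 and WASF2 lay within 2-fold. The exchange factors VAV3 and TIAM1 went from 116 to 23.4 CPM and from 34.3 to 10.4 CPM, and DOCK1 from 17.0 to 6.81 CPM. TIAM2, a relative of TIAM1, went the other way, from 2.39 to 18.6 CPM. The filter fixed both directions here, as DOCK1 passed only through DMSO and TIAM2 only through RAC1i. ARHGAP29, which switches RHOA off, had the largest loss of the list, from 1221 to 207 CPM, 5.90-fold lower (5.84–5.96). RND3, a GTPase that opposes RHOA, went from 71.7 to 358 CPM. In Combo, VAV3 was at 17.7 CPM, TIAM1 at 10.4 CPM, ARHGAP29 at 166 CPM and RND3 at 260 CPM.

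Targets of the actin-regulated factors SRF and YAP did not move as 1 block. Of 23 compared, 7 (30.4%) were higher and 3 lower (13.0%), against 13.1% and 24.6% of all genes, and 3 of the 7 passed the filter only through RAC1i. ANKRD1 and CCN1, classical YAP targets, went from 4.06 to 166 CPM and from 69.0 to 312 CPM, and the Hippo kinase LATS2 from 6.81 to 54.0 CPM. CCN2, another YAP target, was within 2-fold at 60.5 and 68.1 CPM. The adhesion and cross-linking proteins VCL and FLNA went from 85.2 to 30.4 and from 183 to 84.6 CPM, and were higher in RAC1i among cells with 1000 to 10000 UMIs. ACTB stood at 1971 and 1451 CPM. Among integrins, laminins and collagens, 8 of 23 (34.8%) were lower and 3 (13.0%) higher, against 24.6% and 13.1% of all genes. All 3 higher genes (ITGA5, COL2A1 and THBS1) passed the filter only through RAC1i, and 4 of the 8 lower ones only through DMSO. The median of −0.53 was 1.03 among cells with 1000 to 10000 UMIs. The fibronectin receptor chain ITGA5 and the matrix protein THBS1 were 4.41-fold and 8.29-fold higher from low levels in DMSO.

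Many replication genes were lower, and the share of lower genes among those of mitosis was near that of all genes. Of 43 genes of DNA replication and nucleotide synthesis, 20 (46.5%) were at least 2-fold lower and 0 higher, with a median of −0.82, and 8 of the 20 passed the filter only through DMSO. The ligase LIG1, the helicase activator CDC45 and the sliding clamp PCNA were 7.41-fold, 4.91-fold and 3.27-fold lower, but MCM2, MCM3 and MCM7 lay within 2-fold. Of 39 genes of G2 and mitosis, 8 were lower (20.5%) and 1 higher, with a median of −0.37, so the share of lower genes was near the 24.6% of all genes. MKI67 went from 177 to 65.6 CPM, whereas the mitotic kinases CDK1, PLK1 and AURKA were within 2-fold and the cyclin-dependent kinase subunit CKS1B went from 270 to 739 CPM. E2F1, which drives entry into S phase, went from 52.5 to 14.7 CPM, and cyclin D1 (CCND1) from 183 to 529 CPM. Sums over cells, as used here, do not separate fewer cycling cells from less RNA per cycling cell, and this was not examined per cell. EZH2 stood at 32.1 CPM in DMSO against 12.4 CPM in RAC1i, with 15.2 CPM in Combo, and the other 9 subunits or partners of Polycomb repressive complex 2 were within 2-fold.

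Genes known as p53 targets went both ways. TP53I3, FDXR and BAX were 10.2-fold, 9.60-fold and 4.42-fold lower, while the stress genes GADD45A, GADD45B and GADD45G and the death receptor TNFRSF10B were higher. Of 15 compared, 6 were lower and 4 higher, against 24.6% and 13.1% of all genes, and 3 of the 6 passed the filter only through DMSO. Of the 4 higher genes, 1 passed only through RAC1i. Of 12 HIF targets, 6 were lower and 2 (ADM and KDM3A) higher, against 24.6% and 13.1% of all genes, and ADM, which passed the filter only through RAC1i, was 43.5-fold higher (40.4–46.9). Glycolytic genes, proteasome subunits, heat shock genes, lysosomal genes and the BCL2 family had medians between −0.33 and 0.32. Their counts of higher and lower genes were 0 and 3 for glycolysis, 1 and 1 for the proteasome, 0 and 2 for heat shock genes, 3 and 5 for the lysosome and 1 and 2 for the BCL2 family, and each of these shares was below that of all genes.

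Lists of RNA metabolism differed from each other. Host genes of small nucleolar RNAs, which are spliced to release guide RNAs for ribosomal RNA modification, had a median of 1.88. Of 27 compared, 19 (70.4%) were higher and 2 (7.41%) lower, against 13.1% and 24.6% of all genes. SNHG17 went from 31.8 to 880 CPM and GAS5 from 258 to 2734 CPM. Of 34 genes of ribosome biogenesis and RNA polymerase I, 14 (41.2%) were higher and 2 (5.88%) lower, against 13.1% and 24.6% of all genes. TAF1D and RRN3, both factors of RNA polymerase I, were 6.66-fold and 3.69-fold higher. Of 82 ribosomal protein genes, 6 (7.32%) were higher, below the 13.1% of all genes, and the median was 0.18. The kinases CLK1 and CLK4, which phosphorylate SR splicing proteins, went from 13.0 to 90.7 CPM and from 8.11 to 113 CPM, and the splicing regulators TRA2A, TRA2B and SRSF2 were also higher. Of 18 SR proteins and splicing kinases, 7 (38.9%) were higher and 2 (11.1%), SRSF5 and SRPK1, were lower, against 13.1% and 24.6% of all genes. Of the 7, only CLK4 passed the filter through RAC1i alone, so its direction was fixed. Among 26 factors of RNA polymerase II and its pausing, BRD2 went from 62.2 to 321 CPM and HEXIM1, the inhibitor of the elongation kinase P-TEFb, from 75.2 to 164 CPM. In all, 6 of the 26 (23.1%) were higher and 2 (7.69%) lower, against 13.1% and 24.6% of all genes.

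**Figure D4:**
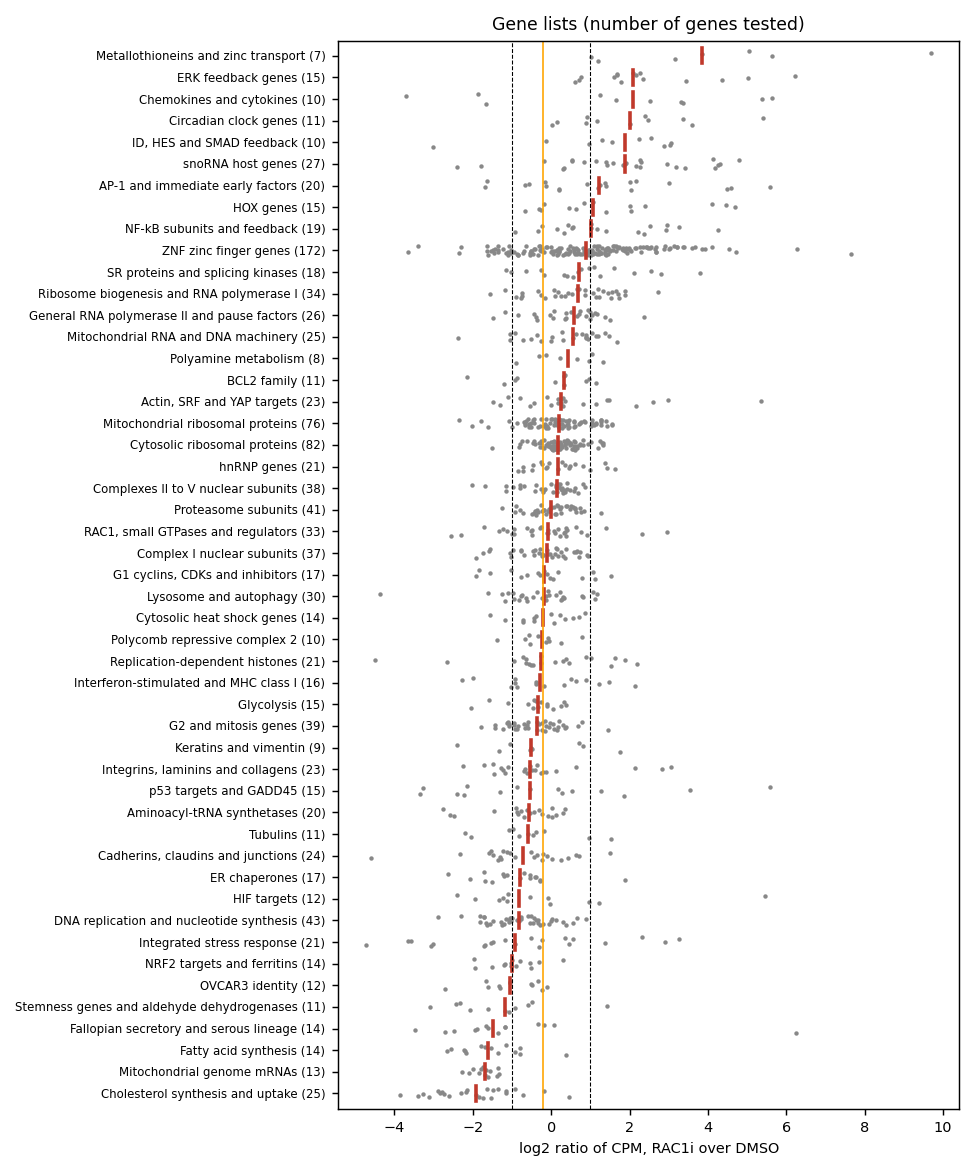
Grey points are the log2 ratios (RAC1i over DMSO) of single genes, red bars the medians of the gene lists with at least 7 genes compared (number in parentheses), the orange line the median of all 8778 genes and dashed lines 2-fold. Medians run from −1.92 for cholesterol synthesis and uptake to 3.85 for metallothioneins and zinc transport.

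Called genes differed from the rest in the structure of their transcripts. Of 8435 nuclear protein-coding genes placed on GENCODE 44, the share that was higher was 22.7% for those with 2 or 3 exons and 5.25% for those with 21 or more, and the share that was lower was 19.0% and 30.5%. Genes at least 4-fold higher had a median of 5 exons, against 9 for all protein-coding genes compared. By the GC content of the transcript, 18.3% of genes under 40% GC and 39.4% of those at 60% or more were lower. Genes without an ATTTA motif, a mark of short-lived mRNAs, in their 3′ untranslated region were lower in 31.8% of cases, and those with at least 4 per kb in 18.8%. Of 311 long noncoding RNAs, 26.4% were higher and 29.6% lower, so both shares were above those of all genes. On chromosome X 5.98% of 251 genes were higher, and on chromosome 19, which carries many ZNF genes, 19.6% of 587. By level, 31.1% of genes at 10 to 30 CPM were lower, against 9.31% of genes at 300 to 1000 CPM, where 22.3% were higher. Exon number, GC content, motif density and level vary together across genes and were not separated.

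**Figure D5:**
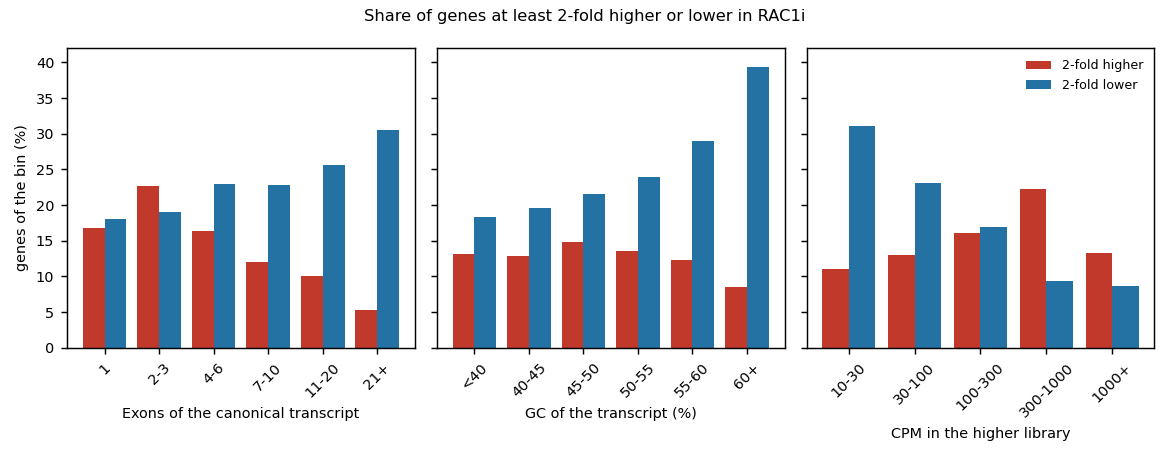
Bars give the percent of genes at least 2-fold higher (red) or lower (blue) in RAC1i by exon number and GC content of the canonical transcript (8435 nuclear protein-coding genes) and by the CPM of the higher library (8778 genes). The red share drops from 22.7% at 2 or 3 exons to 5.25% at 21 or more, and the blue share reaches 39.4% at 60% GC or above.

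Directions were also compared among cells of like depth. When cells were divided by UMIs per cell (1000 to 10000, 10000 to 20000, 20000 to 40000 and over 40000), 1138 of the 1151 higher genes and 1940 of the 2159 lower genes kept their direction in all 4 ranges. When cells were divided by mitochondrial share, 1131 and 1992 did so. The genes were called on sums over these same cells, so this agreement is not independent support. Of the called genes named here, CDH1, EGR1, FADS3, FLNA, FOSB, MT-CO3, MUC16, NEAT1, SOX2 and VCL were lower in all but 1 range of UMIs, and in SOX2 the exception was the range of 1000 to 10000 UMIs, with a log2 ratio of 0.09. The list median of p53 targets and GADD45 genes, −0.53, was 0.29 in that range. RAC1i cells held fewer genes each, with a median of 4307 against 5433 in DMSO. Summed over all kept cells, of which RAC1i had more, 29469 genes had at least 1 UMI in RAC1i and 26395 in DMSO, and 29078 is the number calculated for RAC1i at the DMSO total. Of long noncoding RNAs, 11422 had a UMI in RAC1i and 9516 in DMSO, while their share of all UMIs was 5.02% and 5.00%.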

How the data were processed

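Single-cell RNA-seq of 3 OVCAR3 libraries was used. Per the labels, UMIs were counted with Cell Ranger 4.0.0 on GRCh38, and the authors deposited whole-number counts per gene and barcode, without normalization. Cells were kept by the limits of the study's methods, and no doublets were called or removed. Counts were summed per gene over the 199063947 DMSO and 234969742 RAC1i UMIs of kept cells and scaled to CPM, which at 10 CPM leaves at least 1991 UMIs in the higher library. Ratio intervals are exact conditional intervals (scipy 1.17.1). They cover counting error only, and a gene without UMIs was set to 3 UMIs for log2 ratios. With 1 library per condition no test or p-value was calculated. Genes were described by 57 lists, and the members and lists were chosen with earlier results of these data known. Genes were named when they were among the 15 largest rises or falls at 50 CPM or more, the 10 largest gains or losses in CPM, named by the study, or list members with the largest change or a known role. The genes outside the lists with an NF-kB match were named after their values were seen. Scaling alternatives used edgeR 4.0.16 and DESeq2 1.42.0 for size factors only. The calculation was tested on simulated counts. Some genes are not reported here.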

Additional observations from a re-analysis of the deposited data

How the results depend on the processing

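No paired analysis was possible because each condition had 1 library. The numbers of genes called higher and lower were 1151 and 2159. They were 566 and 613 among genes with at least 50 CPM, and 2357 and 4268 among those with at least 1 CPM, where fewer and more genes were compared. The median log2 ratio over all genes, −0.20, was −0.11 with TMM factors, −0.024 with DESeq2 size factors, −0.28 with a total without mitochondrial genes, −0.25 with a total without these and ribosomal protein genes, −0.17 as a mean over cells, −0.0046 at 50 CPM, −0.29 at 1 CPM and −0.15 in cells with 2 to 6% mitochondrial UMIs. Of 18 lists with a median of at least 2-fold, 11 stayed at least 2-fold under all 14 alternatives, and 251 of 252 values kept their direction. The exception was the HOX genes at 50 CPM, at −0.32, a value that rested on few genes. The HOX median was also under 2-fold at 1 CPM and with a total without mitochondrial and ribosomal protein genes. The NF-kB, NRF2, OVCAR3 identity, mitochondrial mRNA, endothelial and ciliated lists were under 2-fold in some. The endothelial value was that of 1 gene, EGFL7, and the ciliated median that of 3 genes. The median of OVCAR3 identity, −1.04, was −0.60 in cells with 2 to 6% mitochondrial UMIs. Of the named genes called, CDH1, CLDN3, ELAC2, FASTKD2, FLNA, FOSB, KLK8, KRT7, MT-CO3, RPL24, RSPH1, SRPK1, SRSF5 and TFAM were within 2-fold under at least 1 alternative, RSPH1 under 7, ELAC2 under 6 and CDH1 and KLK8 under 5 each. The causes were not tested. With 1 library per condition, variation between cultures was not measured.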

Other observations

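Several gene groups not described above held single genes with large differences, and counts in them are to be read against 13.1% higher and 24.6% lower over all genes. Of 21 replication-dependent histone genes, 5 were at least 2-fold higher and 2 lower. The lower ones were the linker histones HIST1H1D, from 22.2 CPM in DMSO to 0.987 CPM in RAC1i, and HIST1H1E, from 32.0 to 5.10 CPM. Both passed the filter only through DMSO, and 2 of the 5 higher genes only through RAC1i, so their direction was fixed. WIPI1, a phosphoinositide-binding protein of autophagosome formation, went from 11.5 to 0.562 CPM, while the autophagy marker MAP1LC3B went from 73.7 to 166 CPM. WIPI1 passed the filter only through DMSO, so its direction was fixed. Of 16 interferon-stimulated and MHC class I genes, 3 were higher and 3 lower. Of the 3 lower genes 2 passed the filter only through DMSO, STAT2 among them, and 1 of the 3 higher only through RAC1i. The transcription factor IRF1 went from 13.9 to 61.2 CPM and STAT2, a mediator of interferon signalling, from 24.5 to 5.03 CPM.

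Of 11 tubulin genes, 3 (27.3%) were lower and 1 (9.09%) higher, near the shares of all genes, with TUBA1A from 79.3 to 17.2 CPM. Of 9 keratin and vimentin genes, 3 were lower and 1 higher, with KRT23 from 50.7 to 9.68 CPM and KRT80 from 47.5 to 161 CPM. KRT23 passed the filter only through DMSO, so its direction was fixed. The kallikrein KLK8 was 2.06-fold lower, but within 2-fold under 5 of 14 other ways of processing. Of 3 sirtuins, SIRT7, a deacetylase of the nucleolus, went from 43.4 to 202 CPM, and SIRT1 and SIRT2 were within 2-fold. ODC1, which starts polyamine synthesis, went from 159 to 396 CPM. Of 21 hnRNP genes, 3 were higher and 0 lower, with HNRNPDL from 214 to 665 CPM. Of 76 mitochondrial ribosomal protein genes, 14 were higher and 6 lower, from MRPL12, at 242 and 47.7 CPM, to MRPL32, at 57.6 and 169.7 CPM. Of the 3 WNT feedback genes compared, the R-spondin receptor LGR4 went from 73.5 to 12.9 CPM, RNF43 from 8.86 to 22.1 CPM, and ZNRF3 was within 2-fold. RNF43 passed the filter only through RAC1i, so its direction was fixed. Of 3 markers of ciliated cells that reached 10 CPM, CAPS was lower, TUBB4B was within 2-fold, and RSPH1 was lower but within 2-fold under 7 of 14 other ways of processing. CAPS and RSPH1 passed the filter only through DMSO, so their direction was fixed. Of 17 genes of G1, 3 (17.6%) were higher and 4 (23.5%) lower, near the shares of all genes, and 3 of the 4 passed the filter only through DMSO.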
